A study of Mus musculus with 17 samples.

Results

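Imprinted genes were followed across 5 mouse embryonic stem (ES) cell lines and 2 times. The members are 36 genes of 17 imprinted clusters, listed by name among 53588 gene symbols. All 36 were found in the deposited tables. The 5 lines are iFoxA1, iFoxC1, iFoxG1, iFoxL2 and iFoxP3. Per the labels, all were made from MC1 ES cells of strain 129S6/SvEvTac, and each carries at Rosa26 the coding sequence of the forkhead factor it is named for, with a His6-FLAG tag and a puromycin resistance gene, under a promoter that doxycycline (Dox) represses. At 0 h the cells grew in ES medium with serum, leukemia inhibitory factor, Dox and puromycin, and at 24 h Dox had been washed out and the cells had been moved to a differentiation medium with less serum, so loss of Dox and change of medium came together. No line without a transgene was among the samples, and a line's genetic background, passage history and transgene cannot be told apart here. iFoxA1 had 2 libraries at 0 h and 3 at 24 h, while each other line had 1 at 0 h and 2 at 24 h, which gives 17 libraries of polyadenylated RNA. Whether replicates came from separate cultures is not stated in the labels, so p-values measure only the spread between these libraries, which may be technical.

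An imprinted gene is transcribed mainly from the copy inherited from 1 parent. The choice is set by DNA methylation laid down in egg or sperm at control regions that usually govern several neighbouring genes, and clusters pair maternally and paternally expressed transcripts, often with a long non-coding RNA among them. Cultured ES cells are known to gain or lose such methylation, and the Dlk1-Meg3 cluster on chromosome 12 is a textbook case. Neither methylation nor the parental copy was measured here, so the values are totals over both copies.

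Library totals ran from 17.7 to 37.2 M estimated counts. The 5 deeper libraries, all at 24 h (replicate 3 of iFoxA1 and replicate 2 of each other line), formed a set with totals above 30 M that the labels do not name. Every line had a library of this set at 24 h and none had one at 0 h. All 10 ES cell markers were present in every library, with a summed level of 5300 to 6530 CPM (counts scaled to a common library total) at 0 h. At 24 h this level was 6440 CPM in replicate 3 of iFoxA1 and 6560 in replicate 2 of iFoxL2, as high as at 0 h, and 2980 to 4540 in the other 9 libraries. Replicate 3 of iFoxA1 and replicate 2 of iFoxL2 are called the 2 apart libraries below. They were singled out after seeing the data. Single markers went both ways against the 0 h libraries of the same line. In both apart libraries Pou5f1, Sox2, Esrrb, Dppa5a, Tdgf1, Sall4 and Utf1 were higher than at 0 h, and Nanog and Zfp42 were lower. Lin28a was lower in the iFoxA1 library and higher in the iFoxL2 library. Nanog was at 297.4 CPM in that iFoxA1 library against 589.7 and 579.2 at 0 h, and Utf1 at 464.4 against 166.8 and 178.2. In the iFoxL2 library Nanog was at 208.6 against 611.3 at 0 h, and Utf1 at 583.5 against 207.9. The common dispersion in edgeR was 0.168 in all 17 libraries, 0.0835 without both, 0.136 without either iFoxL2 library at 24 h, and 0.0414 with the library set as a term. Many calls near the threshold were lost on leaving out any 1 of the same 10 libraries: both iFoxA1 libraries at 0 h, replicates 1 and 2 of iFoxA1 at 24 h, and both 24 h libraries of iFoxC1, iFoxG1 and iFoxP3. These are called the 10 borderline libraries below.

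The members spanned a wide range of abundance. By median TPM (transcript abundance corrected for length) over the 6 libraries at 0 h, Rian led with 150 (range 52.7 to 228). Cd81 (108), Impact (94.9), Snrpn (74.1), Slc38a4 (69.9) and Gnas (60.1) followed, and the ranges of neighbours in this order overlapped at each of these steps. In all, 15 members had a median of at least 10 TPM and 9 were below 1 TPM. Kcnq1, Airn and Rtl1 did not pass the filter on low counts (no more than 11 counts in any library) and were not tested, which left 33. In bulk RNA, fewer expressing cells and less RNA per cell cannot be told apart.

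**Figure D1:**
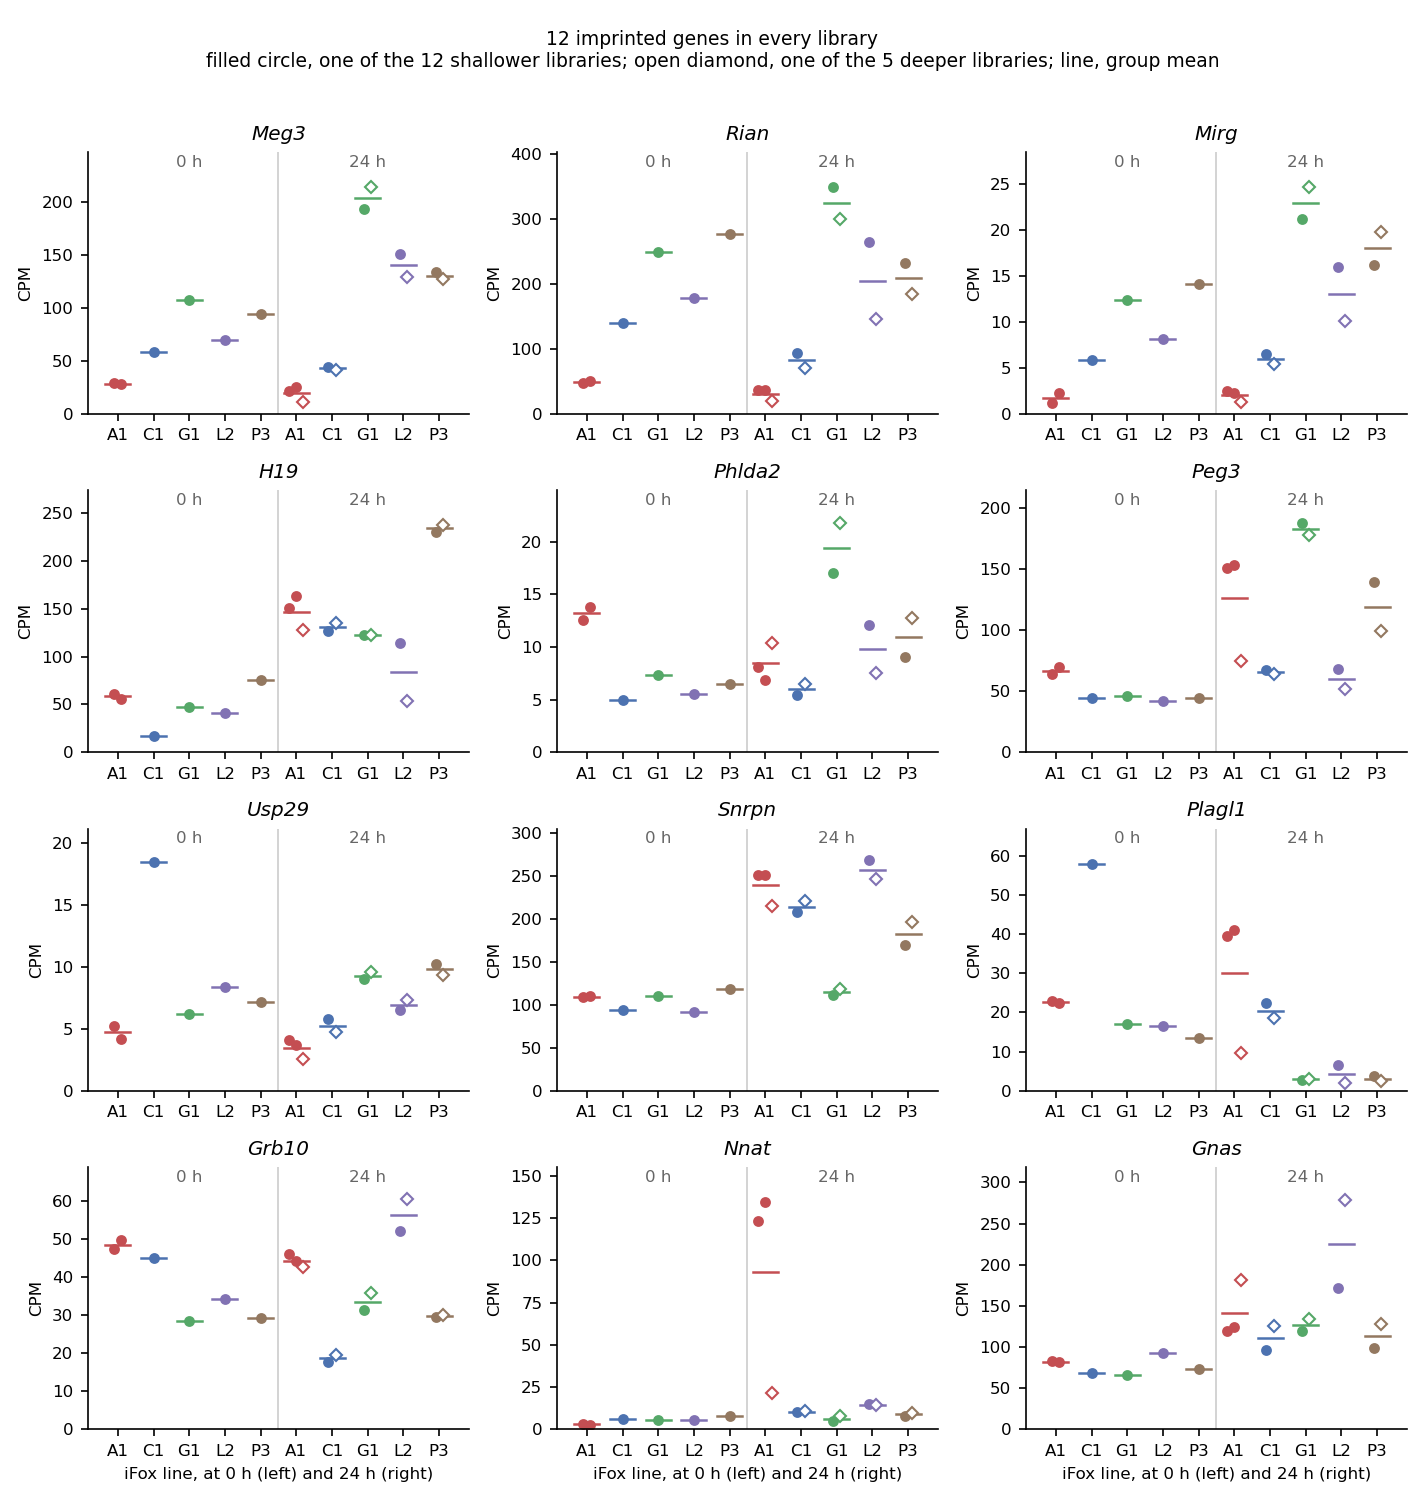
CPM (vertical axis, from 0) of 12 imprinted genes in every library, by line at 0 h (left of each panel) and 24 h (right). Filled circles are the 12 shallower libraries, open diamonds the 5 deeper ones, and short lines the group means. Meg3, Rian and Mirg were lowest in iFoxA1 at both times, and Nnat was high in replicates 1 and 2 of iFoxA1 at 24 h and at 21.2 CPM in replicate 3.

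The first question was whether the lines already differed at 0 h, with Dox present. Whether Dox kept each transgene fully repressed was not tested here. In the edgeR quasi-likelihood F test over the 5 lines at 0 h, 0 of 33 members passed a Benjamini-Hochberg adjusted p of 0.05, against 0.495% of all 19796 genes. At an unadjusted p under 0.05 there were 9 members, DESeq2 called 7, limma on log2(TPM + 0.1) called 0, and edgeR with the library set as a term called 5. Where no other tool or setting is named, a call below is one of edgeR fitted over all 17 libraries. The 12 shallower libraries alone leave 2 residual degrees of freedom and gave 26 to 29 calls in each F test and in the mean change, so that fit is not repeated at each member. With each line set against the mean of the 4 others, iFoxA1 stood apart in 4 members (all genes 1.59%): Meg3, Rian and Mirg were lower (all genes 0.384%) and Grb10 was higher (1.2%). iFoxC1 stood apart in 2 (all genes 1.76%), with H19 lower (0.884%) and Usp29 higher (0.879%). In iFoxG1 (all genes 0.0%), iFoxL2 (0.00505%) and iFoxP3 (0.0101%) edgeR called 0 members, with 4, 1 and 4 at an unadjusted p under 0.05 and 0 by DESeq2 and limma. Over the 5 lines these were 6 of 165 tests of a member in a line, or 3.64%, against 0.673% of such tests over all genes. Meg3, Rian and Mirg are neighbours in the same cluster and moved together, so the 6 calls are not independent. At 24 h, 5 of the 6 had the same sign and 4 passed again, namely Meg3, Rian, Mirg and Grb10 in iFoxA1. Over all genes, 73.0% of 666 calls at 0 h kept their sign and 39.9% passed again. These 0 h tests are limited by their libraries: 4 of the lines had a single one, assumed to vary like the rest, and without replicate 2 of iFoxA1 at 0 h none of the 6 passed. On log2(TPM + 0.1), limma called none of the 6.

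The largest called differences at 0 h were those of Mirg and Rian in the chromosome 12 cluster. Its maternally expressed RNAs Meg3, Rian and Mirg, which host many small nucleolar RNAs and microRNAs, were low in iFoxA1 before Dox was removed and stayed low after it. In GRCm38, Meg3 lies at chr12:109541001-109571726, Rian at chr12:109603940-109661716 and Mirg at chr12:109729764-109749460, all on the plus strand and all annotated as non-coding. The 250 bases before the Meg3 start in RefSeq (GRCm38.p6, plus strand, chr12:109540746-109540995) are shown because the RNAs downstream moved together. Capitals mark a cAMP response element (TGACGTCA) and, as its reverse complement, the hexamer TGCCGC, which is the core of the motif bound by ZFP57, a protein that keeps imprints methylated.
Meg3: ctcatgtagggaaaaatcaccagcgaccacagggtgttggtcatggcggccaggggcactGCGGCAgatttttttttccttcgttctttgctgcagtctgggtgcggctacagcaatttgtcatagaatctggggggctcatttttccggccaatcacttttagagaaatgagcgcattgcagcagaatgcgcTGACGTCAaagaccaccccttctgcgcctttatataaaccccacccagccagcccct

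At 0 h, Meg3 was at 28.7 and 28.3 CPM in the libraries of iFoxA1, 58.4 in iFoxC1, 107.4 in iFoxG1, 94.6 in iFoxP3 and 69.4 in iFoxL2. Rian was at 47.2 and 50.5 CPM in iFoxA1, 139.5 in iFoxC1, 250 in iFoxG1, 276.8 in iFoxP3 and 178.6 in iFoxL2. Mirg was at 1.2 and 2.23 CPM in iFoxA1, 5.88 in iFoxC1, 12.3 in iFoxG1, 14.0 in iFoxP3 and 8.17 in iFoxL2. For each of the 3 RNAs both iFoxA1 libraries lay below every other library, with iFoxC1 next. The log2 difference of iFoxA1 from the mean of the others was −1.49 ± 0.27 (SE) for Meg3 (edgeR adjusted p = 0.0358), −2.06 ± 0.33 for Rian (adjusted p = 0.0221) and −2.48 ± 0.37 for Mirg (adjusted p = 0.0174).

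Each of these calls needed both iFoxA1 libraries at 0 h: without either, edgeR's adjusted p rose to as much as 0.349 for Meg3, 0.292 for Rian and 0.249 for Mirg, while the differences lay between −2.99 and −1.36 over all 17 fits that left out 1 library. The Meg3 call was also lost without any 1 of the borderline libraries except replicate 2 of iFoxA1 at 24 h, and without the 0 h library of iFoxG1 or iFoxP3. Without the 2 apart libraries, singled out after seeing the data, the values were −1.49, −2.06 and −2.48. That fit called a larger share of all genes for iFoxA1 at 0 h than the fit over all 17 libraries (1.59%), so its p-values are not given.

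At 24 h the order of the lines was wider. Meg3 was at 21.8, 25.4 and 11.3 CPM in iFoxA1, 44.0 and 41.7 in iFoxC1, 193.3 and 214.8 in iFoxG1, 134.4 and 127.0 in iFoxP3, and 151.4 and 129.4 in iFoxL2. Rian was at 36.7, 36.8 and 19.7 CPM in iFoxA1, 94.2 and 71.1 in iFoxC1, 350.2 and 299.7 in iFoxG1, 232.8 and 184.3 in iFoxP3, and 264.7 and 146.0 in iFoxL2. Mirg was at 2.48, 2.31 and 1.27 CPM in iFoxA1, 6.45 and 5.40 in iFoxC1, 21.2 and 24.7 in iFoxG1, 16.2 and 19.8 in iFoxP3, and 15.9 and 10.0 in iFoxL2. iFoxA1 was lowest, iFoxC1 next and iFoxG1 highest for all 3 RNAs, and the libraries of these 3 lines did not overlap.

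The difference of iFoxA1 from the others at 24 h was −2.53 ± 0.23 for Meg3 (edgeR adjusted p = 0.000146), −2.57 ± 0.27 for Rian (adjusted p = 0.000319) and −2.73 ± 0.30 for Mirg (adjusted p = 0.000397), and each passed in all 17 fits that left out 1 library. iFoxG1 was higher by 1.71 ± 0.21 for Meg3, 1.67 ± 0.24 for Rian and 1.66 ± 0.26 for Mirg (edgeR adjusted p 0.00257, 0.00686 and 0.0100); without its replicate 2 none of the 3 passed, and without its replicate 1 Rian and Mirg did not (adjusted p up to 0.175). Meg3 was also lower in iFoxC1 by −1.11 ± 0.25 (adjusted p = 0.0414) and higher in iFoxL2 by 1.03 ± 0.21 (adjusted p = 0.0490). The iFoxC1 call was lost without any 1 of the borderline libraries except replicate 2 of iFoxA1 at 24 h, and the iFoxL2 call without any of them, either iFoxL2 library at 24 h or the iFoxP3 library at 0 h. In no line did edgeR call a change of Meg3, Rian or Mirg from 0 h to 24 h, nor did its F test for differences among the lines' changes call them. Such a difference was called for Meg3 by DESeq2, with the replicate block and without replicate 3 of iFoxA1 at 24 h, and for Meg3 and Rian without the 2 apart libraries.

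The summed level of the 3 RNAs ran from 32.3 to 565 CPM. Their proportions varied over a narrower range: per library, Rian was 1.13 to 2.92 times Meg3 in CPM, and Mirg 0.0417 to 0.155 times. At 0 h the ratio of Rian to Meg3 was lower in iFoxA1 (1.645 and 1.785) than in the other lines (2.328 in iFoxG1 to 2.92 in iFoxP3). At 24 h iFoxA1 and the other lines overlapped in this ratio. The paternally expressed neighbour Dlk1, a membrane protein related to Notch ligands, was below 5 CPM throughout, at 0.581 to 1.09 CPM in the 6 libraries at 0 h. At 24 h Dlk1 ran from 0.355 to 0.806 CPM in iFoxA1 and from 1.32 to 3.39 in the 8 other libraries, a difference of −1.84 ± 0.35 (edgeR adjusted p = 0.00697), in the same direction as the RNAs. Rtl1, a paternally expressed gene antisense to transcripts of this region, had at most 3 counts in a library.

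Genes beside the cluster on chromosome 12 had differences nearer 0 in iFoxA1. Evl, Wars and Wdr25 lie within 1 Mb of Dlk1 and are not counted as imprinted here. At 0 h their differences were 0.19 ± 0.20, −0.04 ± 0.18 and −0.10 ± 0.18, none called by edgeR (adjusted p 0.738, 0.975 and 0.882). At 24 h Wars was lower by −0.63 ± 0.14 (adjusted p = 0.0163) and Wdr25 by −0.76 ± 0.14 (adjusted p = 0.00648), while Evl was at 0.30 ± 0.16 (adjusted p = 0.236).

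**Figure D2:**
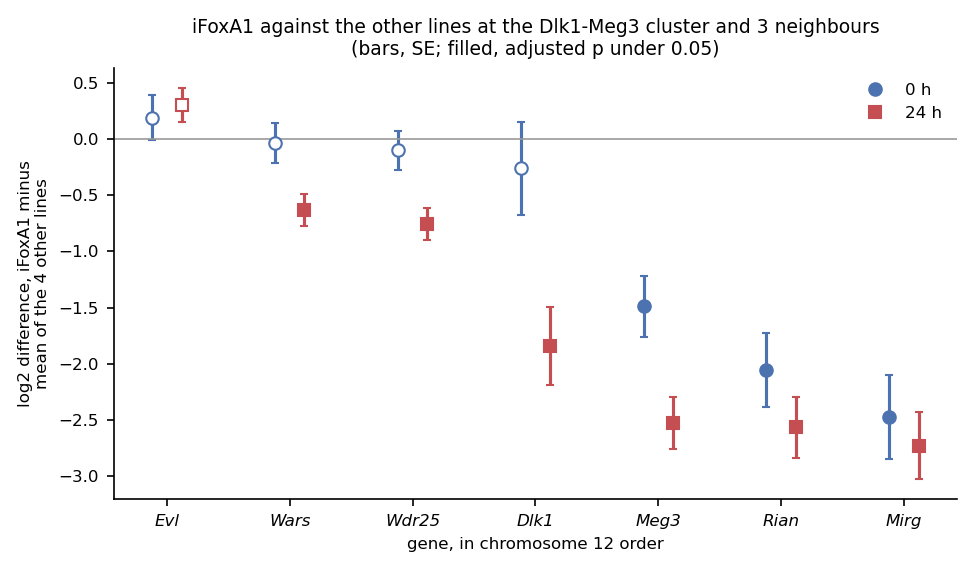
Log2 difference of iFoxA1 from the mean of the 4 other lines (vertical axis) at 0 h (circles) and 24 h (squares) for 3 neighbours and 4 members on chromosome 12, in chromosome order. Bars are SE and filled symbols passed an adjusted p of 0.05; Meg3, Rian and Mirg lay at −1.49 or below at both times, and Evl, Wars and Wdr25 between −0.76 and 0.30.

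Cells of iFoxA1 also differed in markers of primitive and visceral endoderm, the extraembryonic layer that ES cultures can give rise to. The summed level of the 14 markers was 696 to 705 CPM in iFoxA1 against 74.8 to 92.4 in the other lines at 0 h, and 734 to 830 against 116 to 228 at 24 h. Of 13 markers tested, 11 were called higher in iFoxA1 at each time (all genes 1.2% at 0 h and 8.88% at 24 h), Gata6 and Col4a1 among them. Afp was at 0 counts in the other lines at 0 h, and no marker was at 0 in iFoxA1. Some were barely detected there: at 0 h Afp was at 0.1914 and 0.0484 CPM in iFoxA1, and Ttr at 0.04785 and 0.09681. The part of the endoderm markers in the iFoxA1 results was not tested.

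Grb10, an adaptor protein that restrains insulin and growth factor signalling and is expressed from the maternal copy in most tissues, was the 1 member whose change differed among the lines by the F test over all 5 (edgeR adjusted p = 0.0161; all genes 1.0%). At 0 h it was at 47.3 and 49.6 CPM in iFoxA1, 45 in iFoxC1, 28.4 in iFoxG1, 29.2 in iFoxP3 and 34.0 in iFoxL2. At 24 h it was at 45.9, 44.2 and 42.6 CPM in iFoxA1, 17.6 and 19.6 in iFoxC1, 31.2 and 35.7 in iFoxG1, 29.4 and 30.1 in iFoxP3, and 52.1 and 60.4 in iFoxL2. iFoxC1 went from among the highest to the lowest line and iFoxL2 from the middle to the highest, with no overlap at 24 h between either and any other line.

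Within iFoxC1, Grb10 fell by 1.28 ± 0.15 on the log2 scale (edgeR adjusted p = 0.00165) and passed in all 16 such fits; the 17th left out the line's 0 h library and could not give it. In iFoxL2 it rose by 0.72 ± 0.16 (adjusted p = 0.0369), a call lost without any 1 of the borderline libraries. At 24 h iFoxC1 was lower by −1.09 ± 0.11 and iFoxL2 higher by 0.90 ± 0.09 (edgeR adjusted p 0.000812 and 0.00345), and both passed in all 17 fits. iFoxA1 was higher by 0.53 ± 0.11 at 0 h (adjusted p = 0.0456) and 0.47 ± 0.08 at 24 h (adjusted p = 0.00462). The 0 h call was lost without any 1 of the borderline libraries or of the 0 h libraries of iFoxG1, iFoxL2 and iFoxP3 (adjusted p up to 0.439). The F test over changes was lost without any library of iFoxA1 or iFoxC1 other than replicate 3 of iFoxA1 at 24 h (adjusted p up to 0.242). In iFoxC1 at 24 h, 3 of 9 trophoblast markers tested were higher (Gata3, Hand1 and Cdx2), against 2.41% of all genes. In iFoxA1 at 24 h, 2 of the 9 were called higher (all genes 8.88%) and 3 lower (6.24%). Cdx2 was at 5.90, 5.53 and 1.45 CPM in iFoxA1, beside 4.61 and 4.69 in iFoxC1. The summed level of the 11 markers was 113 to 137 CPM in iFoxC1 against 37.8 to 77.4 in iFoxA1 and 28.4 to 75.9 in the 3 other lines, and Prl3d1 was at 0 counts. Their part in the iFoxC1 results was not tested.

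Ddc, the next gene on chromosome 11, encodes the decarboxylase that makes dopamine and serotonin and is imprinted in the heart. It fell in the mean of the lines by 1.36 ± 0.15 (edgeR adjusted p = 0.000172), from 28.5, 36.7 and 49.2 CPM (lowest, median and highest of 6) at 0 h to 9.30, 17.1 and 18.1 (of 11) at 24 h, with no overlap between the times. It was the 1 member with a negative change in all 5 lines, called in iFoxA1, iFoxC1, iFoxL2 and iFoxP3. The iFoxA1 and iFoxL2 calls were lost without any 1 of the borderline libraries among others, the iFoxC1 call without either iFoxA1 library at 0 h or either iFoxC1 library at 24 h, and the iFoxP3 call without either of its own at 24 h (edgeR adjusted p up to 0.238).

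In the H19 cluster on chromosome 7, the non-coding H19 is expressed from the maternal copy and the growth factor Igf2 from the paternal one. H19 (chr7:142575529-142578143) was at 61.3 and 56.2 CPM in iFoxA1, 16.7 in iFoxC1, 47.2 in iFoxG1, 76.0 in iFoxP3 and 41.1 in iFoxL2 at 0 h. Its 24 h values were 150.6, 163.4 and 127.6 CPM in iFoxA1, 127.4 and 134.9 in iFoxC1, 123.2 and 123.0 in iFoxG1, 230.8 and 238.1 in iFoxP3, and 114.0 and 53.3 in iFoxL2. Every 24 h library lay above the 0 h libraries of its own line, and iFoxP3 was highest at both times.

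The mean change of H19 was 1.67 ± 0.16 (edgeR adjusted p = 7.09e-05). Within lines it was 2.97 ± 0.40 in iFoxC1, 1.62 ± 0.37 in iFoxP3 and 1.32 ± 0.27 in iFoxA1 (edgeR adjusted p 0.00333, 0.0348 and 0.0133). The iFoxA1 call was lost without either 0 h library (adjusted p up to 0.132), and the iFoxP3 call without any 1 of the borderline libraries. At 0 h iFoxC1 was lower by −1.70 ± 0.35 (adjusted p = 0.0492), a call on a single library that was lost without any 1 of the borderline libraries or the 0 h library of iFoxG1 or iFoxP3 (adjusted p up to 0.109); at 24 h the difference was −0.07 ± 0.22 and was not called. The lines differed at 24 h by the F test (adjusted p = 0.0442), also lost without any 1 of the borderline libraries.

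Igf2 was low, at 2.63 and 1.94 CPM in iFoxA1, 1.28 in iFoxC1, 7.09 in iFoxG1, 7.54 in iFoxP3 and 10.2 in iFoxL2 at 0 h. At the later time it was at 2.78, 1.93 and 3.84 CPM in iFoxA1, 12.7 and 17.8 in iFoxC1, 10.5 and 14.5 in iFoxG1, 11.5 and 14.2 in iFoxP3, and 8.74 and 1.38 in iFoxL2. iFoxA1 lay below the other lines at 24 h except for replicate 2 of iFoxL2. The difference was −1.87 ± 0.50 (edgeR adjusted p = 0.0332), lost without any 1 of the borderline libraries, and −2.37 without the 2 apart libraries. iFoxC1 was low for both H19 and Igf2 at 0 h and not at 24 h.

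In the neighbouring Kcnq1ot1 cluster, Phlda2, a maternally expressed gene that limits placental growth, was highest in iFoxG1 at 24 h. It was at 12.6 and 13.8 CPM in iFoxA1, 4.98 in iFoxC1, 7.30 in iFoxG1, 6.5 in iFoxP3 and 5.52 in iFoxL2 at 0 h. At 24 h it was at 8.08, 6.82 and 10.4 CPM in iFoxA1, 5.45 and 6.49 in iFoxC1, 17.0 and 21.8 in iFoxG1, 9.09 and 12.8 in iFoxP3, and 12.1 and 7.52 in iFoxL2. Both iFoxG1 libraries at 24 h exceeded every other library.

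The iFoxG1 difference for Phlda2 was 1.18 ± 0.21 (edgeR adjusted p = 0.0202), lost without either of its 24 h libraries or replicate 1 of iFoxC1 (adjusted p up to 0.339). The mean change was 0.52 ± 0.16 (adjusted p = 0.0278), and it did not pass with the library set as a term (0.42, adjusted p = 0.0681). It was also lost without replicate 1 of iFoxA1 at 0 h, without the 0 h library of iFoxG1, iFoxL2 or iFoxP3, and without replicate 2 of iFoxC1, iFoxG1 or iFoxP3 at 24 h (adjusted p up to 0.231). In iFoxG1 at 24 h, 2 of 8 fibroblast markers tested were also higher (Dcn and Col1a2, all genes 1.51%). Both were low there, Dcn at 1.511 and 1.713 CPM and Col1a2 at 1.561 and 1.829. The summed level of the 9 markers in iFoxG1 at 24 h was 22.2 to 27.6 CPM. In iFoxP3 it was 33.5 to 38.8, and over all libraries at 24 h 9.53 to 38.8. Postn was at 0 counts in replicate 1 of iFoxG1 at 24 h, and Col3a1, Dcn, Postn and S100a4 were at 0 in iFoxG1 at 0 h. Their part in the iFoxG1 results was not tested. Kcnq1ot1, the paternally expressed antisense RNA that silences this cluster, was at 10.9 to 27.6 CPM at 0 h and 9.29 to 33.6 at 24 h. Cd81, a tetraspanin, was at 105.4 to 198.6 CPM over all libraries, and Slc22a18, a transporter, at 0.0992 to 1.89. The edgeR fit over all 17 libraries called none of these 3 in any comparison, but other settings did. All 3 differed among the lines at 24 h with the replicate block, without replicate 3 of iFoxA1 and without the 2 apart libraries. Cd81 was also called there by DESeq2, with RLE factors and with the library set as a term, and DESeq2 called it in iFoxA1 at 0 h. Kcnq1, a potassium channel, had at most 5 counts in a library.

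Peg3 and Usp29 are paternally expressed neighbours on proximal chromosome 7 that start back to back and are read in opposite directions. Peg3 encodes a zinc finger protein and Usp29 a deubiquitinase relative. The bases between their starts in RefSeq (GRCm38.p6, plus strand, chr7:6730420-6730582) are shown because the genes share this stretch and behaved differently; neither motif lies in it, though a TGACGTCA lies past it inside both genes' RefSeq promoter windows.
Peg3 and Usp29: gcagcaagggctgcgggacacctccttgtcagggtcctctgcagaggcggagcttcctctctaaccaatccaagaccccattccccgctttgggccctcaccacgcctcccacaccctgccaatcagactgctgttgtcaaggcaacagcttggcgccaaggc

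Peg3 was at 63.8 and 69.3 CPM in iFoxA1, 44.1 in iFoxC1, 46.0 in iFoxG1, 44.6 in iFoxP3 and 41.9 in iFoxL2 at 0 h. After 24 h it was at 150.8, 153.0 and 74.6 CPM in iFoxA1, 67.4 and 63.8 in iFoxC1, 187.3 and 177.7 in iFoxG1, 138.8 and 98.8 in iFoxP3, and 68.4 and 51.8 in iFoxL2. Every line rose in value, and iFoxG1 had the highest libraries at 24 h. The mean change was 1.08 ± 0.17 (edgeR adjusted p = 0.00116), passing in all 17 fits that left out 1 library, and within iFoxG1 it was 1.99 ± 0.42 (adjusted p = 0.0290). That call was lost without either iFoxA1 library at 0 h or any 24 h library of iFoxC1 or iFoxG1 (adjusted p up to 0.0993). At 24 h iFoxG1 was higher by 1.06 ± 0.23 (adjusted p = 0.0438), lost without any 1 of the borderline libraries or replicate 2 of iFoxL2.

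Usp29 did not follow. It was at 5.21 and 4.21 CPM in iFoxA1, 18.4 in iFoxC1, 6.22 in iFoxG1, 7.20 in iFoxP3 and 8.39 in iFoxL2 at 0 h. By 24 h it stood at 4.12, 3.65 and 2.57 CPM in iFoxA1, 5.75 and 4.78 in iFoxC1, 9.01 and 9.55 in iFoxG1, 10.2 and 9.34 in iFoxP3, and 6.56 and 7.30 in iFoxL2. The iFoxC1 library at 0 h was far above every other library, and iFoxA1 was lowest at each time.

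In iFoxC1 at 0 h Usp29 was higher by 1.51 ± 0.24 (edgeR adjusted p = 0.0189), lost without replicate 2 of iFoxA1 at 0 h (adjusted p = 0.0532). From there it fell by 1.81 ± 0.28 in that line (adjusted p = 0.00629), lost without replicate 2 of iFoxC1 at 24 h (adjusted p = 0.0537). iFoxA1 was lower at 24 h by −1.14 ± 0.18 (adjusted p = 0.00256), which passed in all 17 fits, and at 0 h by −0.95 ± 0.22 (adjusted p = 0.0725), not called. Zim1, a maternally expressed zinc finger gene of the cluster, was at 0.236 to 2.34 CPM and was not called in any comparison.

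Snrpn, a paternally expressed gene for a splicing protein in the region tied to Prader-Willi and Angelman syndromes, rose in 3 lines and not in iFoxG1. It was at 108.5 and 109.7 CPM in iFoxA1, 93.9 in iFoxC1, 110.5 in iFoxG1, 118.0 in iFoxP3 and 91.5 in iFoxL2 at 0 h. At 24 h it was at 251.0, 250.2 and 214.7 CPM in iFoxA1, 207.4 and 220.6 in iFoxC1, 111.0 and 118.5 in iFoxG1, 169.0 and 195.6 in iFoxP3, and 267.9 and 245.6 in iFoxL2. The lines lay close together at 0 h, and at 24 h iFoxG1 was below every other line without overlap.

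The mean change of Snrpn was 0.90 ± 0.07 (edgeR adjusted p = 2.30e-05). Within lines it rose by 1.49 ± 0.17 in iFoxL2, 1.19 ± 0.17 in iFoxC1 and 1.13 ± 0.12 in iFoxA1 (edgeR adjusted p 0.00258, 0.00389 and 0.000619), each passing in every fit that left out 1 library and could be fitted. In iFoxP3 the change was 0.63 and in iFoxG1 0.05, neither called, and the F test over the 5 changes missed the threshold (adjusted p = 0.0554); a difference was called by DESeq2, with the library set as a term and without the 2 apart libraries, among others. At 24 h iFoxG1 was lower by −0.95 ± 0.11 (adjusted p = 0.00207), lost without either of its 24 h libraries (adjusted p up to 0.0606), and iFoxA1 was higher by 0.37 ± 0.09 (adjusted p = 0.0173), lost without its replicate 1 or 2 at 24 h (adjusted p up to 0.0962). iFoxL2 was higher by 0.51 ± 0.10 (adjusted p = 0.0400), lost without any 1 of the borderline libraries or its own replicate 1 at 24 h. It was also lost with Snurf, which shares the transcript, summed in (0.53, adjusted p = 0.0509).

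Snrpn has a pair of starts in the tables. Snrpn-201 begins nearest the coding exons, and Snrpn-202 begins far upstream in the same annotation (chr7:59982502-60140219 against chr7:59982495-60005111, minus strand). The 250 bases before each start in RefSeq (GRCm38.p6, minus strand, chr7:60005200-60005449 and chr7:60140226-60140475) are shown because the share of the starts split the libraries; neither holds TGACGTCA or TGCCGC.
Snrpn, start nearest the coding exons: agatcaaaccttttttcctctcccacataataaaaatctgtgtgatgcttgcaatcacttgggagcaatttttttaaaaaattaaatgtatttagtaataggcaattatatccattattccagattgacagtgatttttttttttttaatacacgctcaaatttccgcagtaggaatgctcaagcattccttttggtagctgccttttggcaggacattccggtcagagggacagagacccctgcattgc
Snrpn, upstream start: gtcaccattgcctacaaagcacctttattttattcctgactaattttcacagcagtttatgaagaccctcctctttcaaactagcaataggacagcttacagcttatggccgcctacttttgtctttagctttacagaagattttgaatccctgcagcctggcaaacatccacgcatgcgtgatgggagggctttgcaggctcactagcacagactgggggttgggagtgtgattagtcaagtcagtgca

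Snrpn-202 held 0.884% to 2.41% of Snrpn TPM in the 6 libraries at 0 h and 0.517% to 1.45% in the 6 shallower libraries at 24 h. In the 5 deeper libraries it held 44.4% to 48.4%, in every line, while Snrpn totals in CPM lay close together within a line at 24 h. In TPM the Snrpn total was lower in the deeper 24 h library of every line. It was at 117.5 TPM there against 204.4 and 207.2 in iFoxA1, and at 133.2 against 230.2 in iFoxL2. Of 140 member transcripts with at least 1 TPM in a library, in 29 genes, 16 transcripts of 9 members had shares at least 10 percentage points apart between the 2 kinds of 24 h library. Mest-210 held 0.0% of Mest TPM in the 12 shallower libraries and 15.2% to 39.2% in the deeper ones, and Phlda2-201 held 83.8% to 97.8% in the shallower 24 h libraries and 31.0% to 42.3% in the deeper ones. The transcript shares followed the library set in all 5 lines and not the line, and the gene sums are used throughout. What sets the shares apart was not tested.

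**Figure D3:**
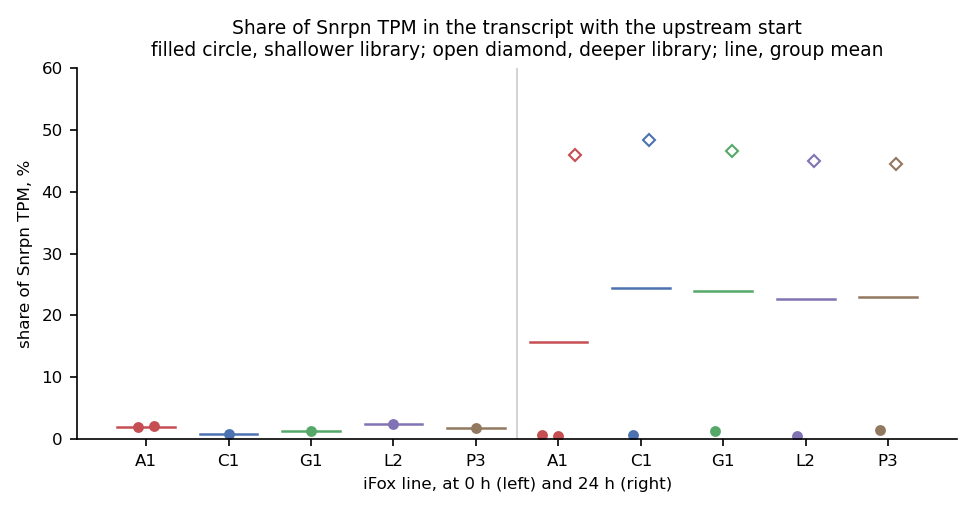
Share of Snrpn TPM in percent (vertical axis) assigned to Snrpn-202, the transcript with the upstream start, in each library by line at 0 h (left) and 24 h (right). Filled circles are the 12 shallower libraries, all at 2.41% or less, and open diamonds the 5 deeper ones, at 44.4% to 48.4%; lines are group means.

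Of the other members of the Snrpn region, 1 was called in the mean change. This was Magel2, a MAGE family gene (edgeR adjusted p = 0.00102), with a positive change in all 5 lines on few reads: 8 counts over 6 libraries at 0 h and 208 over 11 at 24 h, so no fold is given. Ndn, another paternally expressed MAGE gene, was at 2.56 to 4.06 CPM at 0 h and 2.57 to 8.18 at 24 h (mean change 0.55 ± 0.21, edgeR adjusted p = 0.0621), and was called with the replicate block, with the library set as a term and without the 2 apart libraries. Mkrn3, which encodes a ubiquitin ligase, and Ube3a, the Angelman syndrome ubiquitin ligase, were not called in any comparison; Ube3a was at 107.3 to 128.8 CPM at 0 h and 72.5 to 127.9 at 24 h, and lower in the deeper library of each line.

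Plagl1, a paternally expressed zinc finger factor that regulates other imprinted genes, fell in the mean and stayed high in iFoxA1. It was at 22.9 and 22.4 CPM in iFoxA1, 58.1 in iFoxC1, 17.1 in iFoxG1, 13.4 in iFoxP3 and 16.5 in iFoxL2 at 0 h. At the later time it was at 39.7, 41.0 and 9.52 CPM in iFoxA1, 22.3 and 18.6 in iFoxC1, 2.82 and 2.90 in iFoxG1, 3.63 and 2.59 in iFoxP3, and 6.56 and 2.01 in iFoxL2. At 24 h iFoxA1 and iFoxC1 lay above the 3 other lines without overlap, and replicate 3 of iFoxA1 lay well below its partners. In that library the summed level of the ES markers was as high as at 0 h, with most single markers above their 0 h values and Nanog, Zfp42 and Lin28a below. The part of the ES markers in the values of Plagl1, Nnat and Mest in that library was not tested.

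The mean change of Plagl1 was −1.55 ± 0.33 (edgeR adjusted p = 0.00523) and the difference of iFoxA1 at 24 h was 2.51 ± 0.41 (adjusted p = 0.00319); both passed in all 17 fits. Without the 2 apart libraries they were −1.34 and 2.77. The iFoxC1 difference at 24 h was 1.82 ± 0.46 and missed the threshold (adjusted p = 0.0637).

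Nnat, a small paternally expressed membrane protein of developing brain and endocrine tissue that lies in an intron of Blcap, gave the largest change within a line. It was at 2.92 and 2.52 CPM in iFoxA1, 6.02 in iFoxC1, 5.60 in iFoxG1, 7.69 in iFoxP3 and 5.25 in iFoxL2 at 0 h. The 24 h libraries gave 123.3, 134.5 and 21.2 CPM in iFoxA1, 9.97 and 10.8 in iFoxC1, 4.73 and 7.52 in iFoxG1, 7.59 and 9.80 in iFoxP3, and 14.8 and 14.2 in iFoxL2. iFoxA1 went from the lowest line to the highest, and its replicate 3 lay far below the other 2 and still above every other line.

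Within iFoxA1, Nnat rose by 5.09 ± 0.75 (edgeR adjusted p = 0.00279), a call lost without replicate 2 of iFoxA1 at 0 h. Without the 2 apart libraries the rise was 5.56. At 24 h iFoxA1 was higher by 3.29 ± 0.40 (adjusted p = 0.000716), passing in all 17 fits. The change in the other lines was 0.14 to 1.47 and not called, and the edgeR F test over the changes did not pass (adjusted p = 0.118). A difference was called by DESeq2, with no filter on low counts, with the replicate block, without replicate 3 of iFoxA1 and without the 2 apart libraries, and not with limma or the library set as a term. The host gene Blcap was at −0.26 ± 0.15 in iFoxA1 (adjusted p = 0.349).

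From 0 h to 24 h, 14 of 33 members passed in the mean of the 5 lines (all genes 37.8%). Of these 12 rose (all genes 21.7%) and 2, Plagl1 and Ddc, fell (all genes 16.1%). The median change over the 33 was 0.28 against 0.04 over all genes, and the median size of the change 0.52 against 0.46. Both members of the Peg10 cluster rose. In the chromosome 12 cluster Dlk1 rose (0.89 ± 0.25, edgeR adjusted p = 0.0203, lost without the 0 h library of iFoxC1 or iFoxP3), while Meg3 was at 0.28 ± 0.15, Rian at −0.25 ± 0.18 and Mirg at 0.43 ± 0.20, not called (adjusted p 0.179, 0.302 and 0.118). On chromosome 11 Ddc fell and Grb10 was at −0.08 ± 0.06. Differences between members of a cluster were not tested.

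Peg10, a gene derived from a retrotransposon and needed in the placenta, was the 1 member called in all 5 lines. It was at 33.6, 92.1 and 98.6 CPM (lowest, median and highest of 6) at 0 h and 412.9, 610.7 and 1108 (of 11) at 24 h, with no overlap. The mean change was 3.23 ± 0.30 (edgeR adjusted p = 5.61e-05) and within lines it ran from 2.79 in iFoxA1 to 4.44 in iFoxC1. The iFoxC1 call passed in every such fit that could be made, the iFoxA1 call was lost without either of its 0 h libraries, and the iFoxG1, iFoxL2 and iFoxP3 calls were lost in 7, 11 and 10 of 16 fits (edgeR adjusted p up to 0.119). Its head-to-head neighbour Sgce, a sarcoglycan, rose from 2.06, 2.55 and 3.18 CPM to 3.65, 6.53 and 18.0, a mean change of 1.5 ± 0.32 (adjusted p = 0.00550). Both are expressed from the paternal copy.

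Mest, a paternally expressed hydrolase-like protein of mesoderm, rose from 54.1, 95.2 and 126.3 CPM to 107.1, 189.9 and 305.6 (mean change 1.21 ± 0.21, edgeR adjusted p = 0.00193). Within lines it passed in iFoxA1 (1.69 ± 0.37) and iFoxC1 (2.42 ± 0.53), which started lowest; replicate 3 of iFoxA1 was the lowest 24 h library, at 107.1 CPM. The iFoxA1 call was lost without any 1 of its libraries but replicate 3 at 24 h, and the iFoxC1 call without either of its 24 h libraries (adjusted p up to 0.158). Gnas, the complex locus of the stimulatory G protein alpha subunit, was at 82.4 and 81.9 CPM in iFoxA1, 68.1 in iFoxC1, 65.3 in iFoxG1, 73.3 in iFoxP3 and 92.8 in iFoxL2 at 0 h. At 24 h it was at 119.9, 123.6 and 181.8 CPM in iFoxA1, 96.0 and 125.3 in iFoxC1, 118.8 and 133.9 in iFoxG1, 98.3 and 128.1 in iFoxP3, and 171.2 and 278.9 in iFoxL2. Every 24 h library was above every 0 h library, and the deeper library of each line was the higher of that line. The mean change was 0.87 ± 0.15 (adjusted p = 0.00182) and 0.64 with the library set as a term (adjusted p = 0.000190).

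Trappc9, a trafficking protein with maternal bias in brain, was at 10.3, 14.1 and 17.8 CPM at 0 h and 15.8, 20.3 and 44.7 at 24 h. Its mean change of 0.82 ± 0.29 (edgeR adjusted p = 0.0468) did not pass with the library set as a term (0.40, adjusted p = 0.116). It was lost without either 0 h library of iFoxA1, the 0 h library of iFoxG1, iFoxL2 or iFoxP3, any 24 h library of iFoxC1, iFoxG1 or iFoxP3, or replicate 2 of iFoxL2. The non-coding Peg13 within it was at 0.504 to 3.51 CPM and not called by edgeR over all 17 libraries. Without either iFoxL2 library at 24 h it differed among the lines at 24 h, and without the 2 apart libraries it did so there and in iFoxA1 and iFoxC1 at 0 h.

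The remaining members were called in no comparison by edgeR over all 17 libraries. Igf2r, the receptor that clears Igf2, was at 58.6, 84.3 and 97.3 CPM at 0 h and 79.5, 99.7 and 208.4 at 24 h (0.47 ± 0.19, edgeR adjusted p = 0.0840). Impact (179.9 to 265.5 CPM at 0 h, 148.2 to 289.9 at 24 h), the amino acid transporter Slc38a4 (186.2 to 247.5 and 139.9 to 268.3) and Zdbf2 (51.0 to 106.1 and 65.0 to 114.4) stayed in overlapping ranges. Zrsr1, a splicing factor relative, was at 34.7 to 88.1 CPM at 0 h, 43.5 to 81.9 in the shallower libraries at 24 h and 16.4 to 30.6 in the deeper ones, which did not overlap. Other settings called each of these 5 somewhere. DESeq2 called Igf2r in the mean change and Impact among the lines at 24 h. With the library set as a term, edgeR called Zdbf2 in the mean change and Zdbf2 and Zrsr1 in iFoxA1 at 0 h. Slc38a4 was called in the mean change without the 2 apart libraries.

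**Figure D4:**
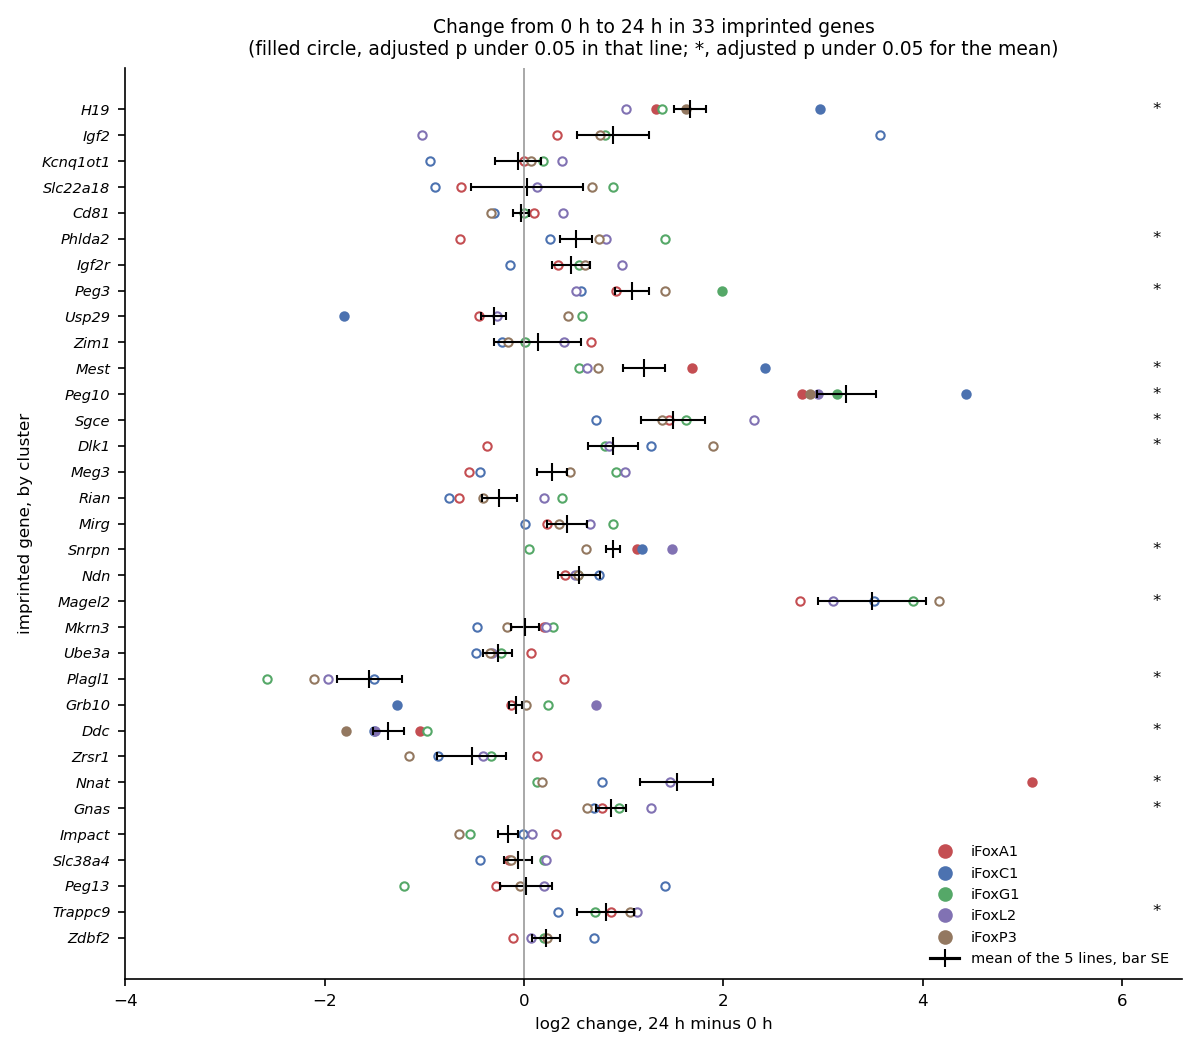
Log2 change from 0 h to 24 h (horizontal axis) of the 33 tested imprinted genes, grouped by cluster. Circles are the 5 lines, filled where the adjusted p was under 0.05; the black mark is the mean of the lines with its SE, and an asterisk marks the 14 means that passed. The mean of Magel2 lies furthest right and rests on few counts, that of Peg10 is next with all 5 lines called, and the single circle at 5.09 is Nnat in iFoxA1.

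More members were called between lines at 24 h than at 0 h. The F test over lines called 12 of 33 members (all genes 13.1%): H19, Phlda2, Peg3, Usp29, Dlk1, Meg3, Rian, Mirg, Snrpn, Plagl1, Grb10 and Nnat. Those of Peg3 and Phlda2 were lost without either iFoxA1 library at 0 h, replicate 1 of iFoxA1 at 24 h or any 24 h library of iFoxC1 or iFoxG1 (adjusted p up to 0.148), and that of Dlk1 without any 1 of the borderline libraries. Against the 4 others, iFoxA1 was apart in 10 members (all genes 15.1%), 4 higher (8.88%) and 6 lower (6.24%). iFoxG1 was apart in 6 (2.74%), 5 higher (1.51%) and Snrpn lower (1.24%). In iFoxL2 3 were called, all higher (1.12% of all genes higher, 1.64% in either direction), and in iFoxC1 2, both lower (1.28% lower, 3.69% in either direction). In iFoxP3 edgeR called 0 (0.561%), with 8 at an unadjusted p under 0.05, 4 by DESeq2 and 0 by limma on log2(TPM + 0.1). That is 21 of 165 tests of a member in a line, or 12.7%, against 4.75% over all genes. Within lines, 7 members changed in iFoxC1 (all genes 9.73%), 4 rising (6.25%) and 3 falling (3.48%). In iFoxA1 6 changed (10.8%), 5 rising (6.63%) and Ddc falling (4.14%). In iFoxL2 4 changed (4.23%), 3 rising (2.3%) and Ddc falling (1.93%), and in iFoxP3 3 changed (6.05%), 2 rising (3.26%) and Ddc falling (2.79%). In iFoxG1 2 changed (5.64%), both rising (3.34% of all genes rose and 2.3% fell). These are 22 of 165, or 13.3%, against 7.28%. The 5 lines share comparison libraries, since each serves among the others of the rest. Calls of neighbours that moved together, such as Meg3, Rian and Mirg, are not independent either.

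**Figure D5:**
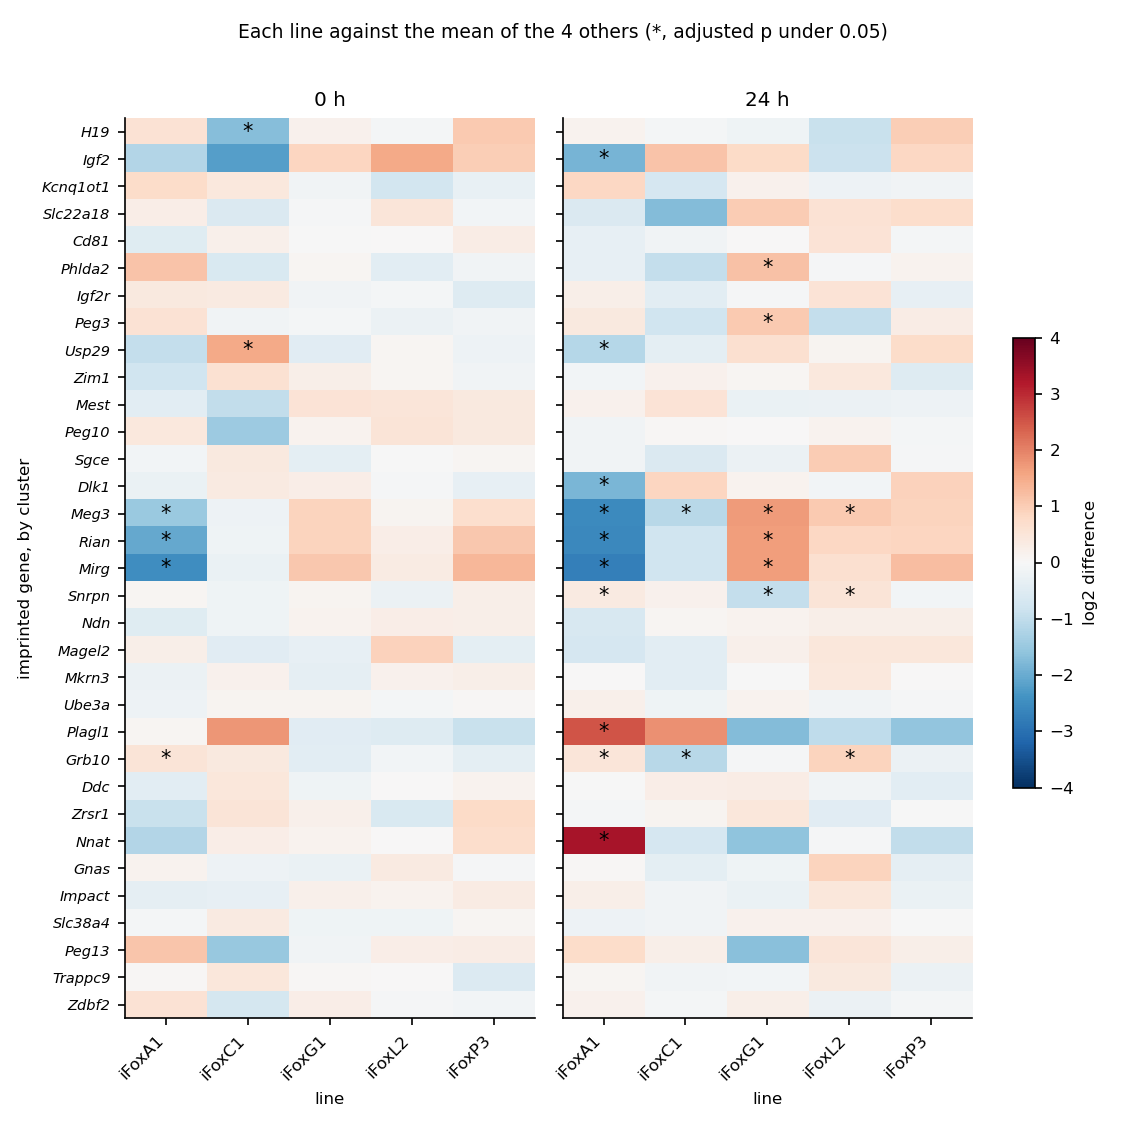
Log2 difference of each line from the mean of the 4 others at 0 h (left) and 24 h (right) for 33 imprinted genes in cluster order; red is higher, blue lower, and an asterisk marks an adjusted p under 0.05. At 0 h 6 cells are marked, in iFoxA1 and iFoxC1, and at 24 h 21, with Meg3, Rian and Mirg marked low in iFoxA1 and high in iFoxG1.

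Genes that work with or beside the members were read from lists. Of 20 genes of imprint maintenance and DNA methylation, all tested, 10 passed in the mean change (all genes 37.8%), 8 higher (21.7%) and 2 lower (16.1%). The most certain were the de novo methyltransferases Dnmt3b (1.47 ± 0.11) and Dnmt3a (1.33 ± 0.10), their cofactor Dnmt3l (1.31 ± 0.15) and the 5-methylcytosine oxidase Tet3 (2.08 ± 0.17). The list's median was 0.05, beside 0.04 over all genes. In iFoxA1, 2 of the 20 passed at 0 h (all genes 1.59%): Dppa3, which protects methylation in the early embryo, was lower by −2.04 ± 0.35 (edgeR adjusted p = 0.0294) and Arid4a was higher by 0.72 ± 0.13. In iFoxC1, with a single library, 3 passed at 0 h (all genes 1.76%), namely Dnmt3b, Dppa3 and Dnmt3a. Of these 1 was higher (0.879%) and 2 were lower (0.884%). In iFoxG1, iFoxL2 and iFoxP3 edgeR called 0 at 0 h. At 24 h 7 of the 20 passed in iFoxA1 (all genes 15.1%), 2 higher (8.88%) and 5 lower (6.24%), with Dnmt3b at −1.22 ± 0.15 and Dppa3 at −1.23 ± 0.26 among the lower ones. Zfp57, given because its hexamer was searched, was at 0.01 ± 0.13 and 0.16 ± 0.10 in iFoxA1 at the 2 times, not called.

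Of 45 further imprinted genes, 43 were in the tables and 36 were tested; 17 passed in the mean change (all genes 37.8%), 14 higher (21.7%) and 3 lower (16.1%), with a median of 0.43 beside 0.04 over all genes. The growth inhibitor Cdkn1c rose by 1.95 ± 0.14 and the phospholipid transporter Atp10a by 2.15 ± 0.16, and both differed among the lines' changes (edgeR adjusted p 0.0182 and 0.0443). In iFoxA1 none of the 36 passed at 0 h by edgeR and 10 did at 24 h (all genes 15.1%), 4 higher (8.88%) and 6 lower (6.24%). In iFoxC1, with a single library at 0 h, 2 passed at that time (all genes 1.76%). These were Pon2 and Cdkn1c, both lower (0.884%). The 3 other lines had 0 at 0 h. Dio3, at the far end of the chromosome 12 cluster, was at −1.36 ± 0.44 in iFoxA1 at 0 h (adjusted p = 0.170) and −3.03 ± 0.40 at 24 h (adjusted p = 0.00110).

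Of 17 neighbours and hosts that are not counted as imprinted here, 13 were tested and 6 rose (all genes 21.7%), none fell (16.1%), with a median of 0.28; the amino acid transporter Slc38a2, beside Slc38a4, was the most certain and was called in all 5 lines. Of 13 genes of the Igf2 axis, all tested, 9 rose (all genes 21.7%) and none fell (16.1%), with a median of 1.44 beside 0.04. Among them were the receptor Igf1r (1.88 ± 0.12), the insulin receptor Insr (1.58 ± 0.23), the adaptor Irs2 (2.12 ± 0.14) and the binding protein Igfbp3 (1.97 ± 0.13).

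RefSeq promoter windows (GRCm38.p6, 300 bases each) were at hand for 28 of the 36 members, 45 windows in all. TGACGTCA, searched on both strands, lay in 4 of the 45 (8.89%), in windows of Meg3, Peg3, Usp29 and Zdbf2, the Peg3 and Usp29 windows sharing the same site, against 1.79% of all 32851 windows. TGCCGC, on both strands and not overlapping the other motif, lay in 10 (22.2%) against 11.6%. Among the 10, the Mest windows that start at chr6:30737800 and chr6:30737803 overlap almost fully and are counted separately. The median number of CpG dinucleotides per window was 11 against 7. These are matches of letters and say nothing of binding.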

How the data were processed

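RNA was measured in 17 libraries of polyadenylated RNA, prepared with a stranded kit per the labels. Per the submitters' processing notes, Salmon 1.4.0, DESeq2 1.30.1 and mm10 were used by the authors; their annotation is not named in any source used here. The authors deposited an estimated count and a TPM per transcript. Of 137271 transcripts, 137225 matched GENCODE M21 by identifier and were summed per gene symbol; 46 without a match held at most 0.0133% of counts. No allele or methylation data were used.

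Summed estimated counts, rounded, were tested with edgeR 4.0.16 (TMM, filterByExpr, quasi-likelihood, R 4.3.3) over 10 groups of line and time, with 19796 genes tested and Benjamini-Hochberg adjusted p under 0.05. SEs come from the F statistic. CPM uses TMM-scaled totals. Totals were 17.7 to 37.2 M. Alternatives were RLE factors, DESeq2 1.42.0, limma 3.58.1 on log2(TPM + 0.1) and log2(TPM + 1), no filter, a replicate block, the library set as a term, the shallower set alone, each library left out, Snurf summed with Snrpn, and, added after seeing the data, both apart libraries left out. The fits were tested on simulated data.

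The members and lists were chosen with earlier results of these data known. Values per library are given for at most 12 members with at least 5 CPM in a group, called over the lines or in the mean change, by smallest adjusted p over the lines. Igf2, which was called in none of these tests, is given by library in addition. The others are given as ranges where they suffice. From each list, up to 4 genes of smallest adjusted p are named.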

Additional observations from a re-analysis of the deposited data

Results flagged for a closer look

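The change of Grb10 from 0 h to 24 h differed among the 5 lines by edgeR's F test (adjusted p = 0.0161), with −1.28 in iFoxC1, 0.72 in iFoxL2, −0.13 in iFoxA1, 0.24 in iFoxG1 and 0.02 in iFoxP3 on the log2 scale. It was singled out because the effect of the same step differed between lines. DESeq2 called it, limma did not, and over all alternatives the adjusted p ran from 5.20e-13 to 0.612.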

How the results depend on the processing

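The number of members called depended on the setting, and so did the share of all genes called. In the F test over lines at 0 h this share was 0.495% in the fit over all 17 libraries. It was 3.55% with the library set as a term and 6.32% with DESeq2. Without both apart libraries and in the shallower set it was higher still. The counts below are of members only. The F test over lines at 0 h went from 0 to 2 with no filter on low counts, 5 with the library set as a term, 26 in the shallower set alone, 14 without both apart libraries and 7 with DESeq2, and from 0 to 6 with 1 library left out. At 24 h it went from 12 to 29 in the shallower set, 22 without both apart libraries and 4 with limma on either TPM scale, and from 8 to 17 with 1 library left out. The mean change went from 14 to 27 and 22 in the same settings, and from 12 to 18 with 1 library left out. The F test over changes went from 1 to 3 with the set as a term, 26 in the shallower set, 16 without both apart libraries, 6 with DESeq2 and 0 with limma on either scale, and from 0 to 6 with 1 library left out. Each line against the others at 0 h went from 6 to 13, 81, 29 and, with limma, 0 on either scale (leaving out 1 library, 0 without replicate 2 of iFoxA1 at 0 h to 12 without its replicate 3 at 24 h). At 24 h it went from 21 to 37, 100, 66, 39 with DESeq2, and 5 and 6 with limma (11 without replicate 2 of iFoxG1 to 43 without replicate 3 of iFoxA1). Changes within lines went from 22 to 35, 107, 76, 35 with DESeq2 and 11 with limma on either scale (9 to 38). The shallower set has 2 residual degrees of freedom, both from iFoxA1. The cause of the other shifts was not tested.

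Replicate numbers did not pair all groups: 6 of 15 pairs of groups had r over 0.1. These 6 were the pairs among iFoxC1, iFoxG1, iFoxL2 and iFoxP3 at 24 h (0.551 to 0.757), where the numbers follow the library set; pairs with iFoxA1, numbered otherwise, lay between −0.041 and 0.039. With the replicate block the counts, in the order above, were 5, 6 for the F test over changes, 15, 47 and 41, and the counts at 24 h over lines and for the mean change stayed within 1.5 times. Of 76 single results, none reversed in 1966 values under alternatives, and 380 no longer passed; limma lost 49 and 50 of 76, while DESeq2 and the fit without both apart libraries lost 0. Depth limits Magel2, Dlk1 and the 3 members below the filter.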
